A study of Homo sapiens with 18 samples.

Results

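The FASTK family is a group of 6 human proteins, FASTK, FASTKD1, FASTKD2, FASTKD3, FASTKD5 and TBRG4 (also named FASTKD4), that bind RNA inside mitochondria. Their mRNAs were selected by gene symbol, and 6 of 6 were found in the whole-cell table of 44682 genes and in the fraction table of 15747 genes. The proteins are encoded in the nucleus, translated in the cytosol and imported into mitochondria. The values of these 6 genes therefore describe RNAs of nuclear genes, and whole-cell RNA also holds their transcripts in the nucleus. The RNAs on which the proteins act are made from mitochondrial DNA. Mitochondrial DNA is read into long RNAs that hold many genes in a row. Most mRNAs and rRNAs are freed when the tRNAs between them are cut out, and the family is known for the steps that remain: cuts at borders without a tRNA, and the stability and translation of single mRNAs.

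DU145, an epithelial line from a metastatic prostate carcinoma, was the only cell line. GC7, an inhibitor of the enzyme deoxyhypusine synthase, which starts the addition of hypusine to the translation factor eIF5A, was given at 40 µM for 24 h, and the other cells received vehicle. The 6 groups of 3 libraries, 18 in all, were whole cells with GC7 and with vehicle, heavy polysomes with GC7 and with vehicle, and cytoplasm with GC7 and with vehicle. Per the labels' protocols, cells were exposed to emetine, a drug that freezes ribosomes on mRNA, before hypotonic lysis, and nuclei and mitochondria were spun out of the lysate that gave the cytoplasmic and polysomal RNA. Mitochondrial RNA in these fractions is therefore what the spin left behind. The labels do not say whether the 3 libraries of a group came from separate cultures, so p-values measure the spread between libraries, which may be technical.

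Each deposited table gives 1 value per gene and comparison, so the depth and the value of single libraries are unknown. Mean normalized counts summed to 32579400 over polysomes and to 29273000 over cytoplasm, with medians per gene of 572 and 401. Neither table names its numerator. Directions below read the category "UP" as higher with GC7, and the sign of the whole-cell table was turned round because its deposited values run against those of the fractions. On the opposite reading every direction turns. All whole-cell values below are given after this change of sign. Of the markers of the line, KRT8, KRT18, KRT7, VIM, EGFR and CD44 were all measured in cytoplasm, at mean normalized counts between 1870 (CD44) and 47928 (KRT7), while KLK3, TMPRSS2 and the blood cell marker PTPRC stood at the whole-cell value shared by genes without reads. CD68, a macrophage gene, was measured at 1336 in polysomes and at 774 in cytoplasm. PECAM1, VWF, PDGFRB and DCN had reads in whole cells and were not found by symbol among the 15747 genes of the fractions. The nuclear RNA MALAT1 had 322 mean normalized counts in polysomes and 4563 in cytoplasm, and NEAT1 had 963 and 1398.

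Some members act at borders without a tRNA, while other target RNAs of the family, such as MT-ND3, begin next to one. The reference sequences below come from the mitochondrial chromosome of GRCh38, plus strand, 5′ to 3′, with 15 bases before and 15 bases from the first base of a coding sequence, whose first codon is in capitals. They are shown because the first 3 starts have no tRNA of the same strand directly before them, while the last has one.
MT-ATP6 to MT-CO3, chrM:9192-9221: gcacgacaacacataATGacccaccaatca
MT-ND5 to MT-CYB, chrM:14732-14761: actacaagaacaccaATGaccccaatacgc
Start of MT-CO1, chrM:5889-5918: acctcacccccactgATGttcgccgaccgt
MT-TG to MT-ND3, chrM:10044-10073: attcaaaaaagagtaATAaacttcgcctta
In the first, the annotated MT-ATP6 and MT-CO3 share 1 base, so that no spacer lies between the mRNAs. In the second, 598 bases separate the end of MT-ND5 from MT-CYB, and the annotation places MT-ND6 and the glutamate tRNA there on the other strand. Upstream of MT-CO1, 12 bases separate it from the tyrosine tRNA, again on the other strand. MT-ND3 by contrast begins at the base after the glycine tRNA of its own strand. The mitochondrial chromosome of 16569 bases holds 13 mRNAs, 2 rRNAs and 22 tRNAs in the GENCODE annotation.

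The 6 nuclear genes lie on 4 chromosomes (GRCh38, GENCODE). FASTK is on chromosome 7, 151076624 to 151080866, and TBRG4 on chromosome 7, 45100100 to 45112047. FASTKD1 is on chromosome 2, 169528508 to 169573875, and FASTKD2 on chromosome 2, 206765357 to 206796189. FASTKD3 is on chromosome 5, 7859159 to 7869037, and FASTKD5 on chromosome 20, 3146519 to 3159865. The canonical coding sequences run from 1650 bases in FASTK to 2544 in FASTKD1, all above the median of 1401 over 12880 measured genes. FASTKD5 holds its whole coding sequence in 1 exon, while the coding exons of the others number 6 in FASTKD3, 10 in FASTK and in TBRG4, 11 in FASTKD2 and 14 in FASTKD1. Coding GC content split the family into FASTK at 63.8% and TBRG4 at 59.0% on one side, and FASTKD5 at 45.4%, FASTKD3 at 40.3%, FASTKD2 at 39.4% and FASTKD1 at 37.2% on the other, where the median gene had 52.7%.

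The same pair holds the proline runs of the family. Hypusinated eIF5A helps ribosomes past stretches of consecutive prolines, among other slow sites, so runs of at least 3 proline codons were counted in the canonical coding sequences. FASTK had 2 such runs and TBRG4 had 1, while FASTKD1, FASTKD2, FASTKD3 and FASTKD5 had 0. Among the 12880 genes, 26.2% had at least 1 run. The 3 runs are printed with their proline codons in capitals and 2 codons on either side.
FASTK, run from codon 131: ccacggCCCCCTCCTgtggag
FASTK, run from codon 192: ccgaagCCACCTCCCCCTttgcag
TBRG4, run from codon 554: cagtcaCCACCTCCAgggtct
The longest run, from codon 192 of FASTK, is 4 prolines. Whether these runs bear on the values below was not tested.

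FASTK and TBRG4 were also the abundant members. Per kilobase of exon, FASTK averaged 1209 mean normalized counts in polysomes and 891 in cytoplasm, and TBRG4 averaged 835 in polysomes and 725 in cytoplasm. These levels exceeded those of 89.9% and 90.2% of genes for FASTK, and of 85.8% and 88.3% for TBRG4. FASTKD3 followed at 178 in polysomes and 121 in cytoplasm, near the middle of all genes on this scale, whose medians were 124 and 85.2. It was above 58.3% and 57.7% of 14189 genes by exon length, but above 35.6% and 35.0% of 12880 genes by coding length. Its place therefore depends on the length used and on the genes compared, which both differ here. FASTKD1 (49.9 and 52.8), FASTKD5 (48.5 and 52.3) and FASTKD2 (37.6 and 33.3 per kilobase of exon in polysomes and cytoplasm) were below it. The deposited means carry no spread, so neighbours in this order cannot be told apart by a test. With coding length in place of exon length, FASTK and TBRG4 stayed the highest (in changed order in cytoplasm), FASTKD3 stayed next, FASTKD2 moved to rank 4 and FASTKD1 to rank 6. By that length FASTK was above 81.0% of genes in polysomes and 82.3% in cytoplasm, and TBRG4 above 79.8% and 83.4%.

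**Figure D1:**
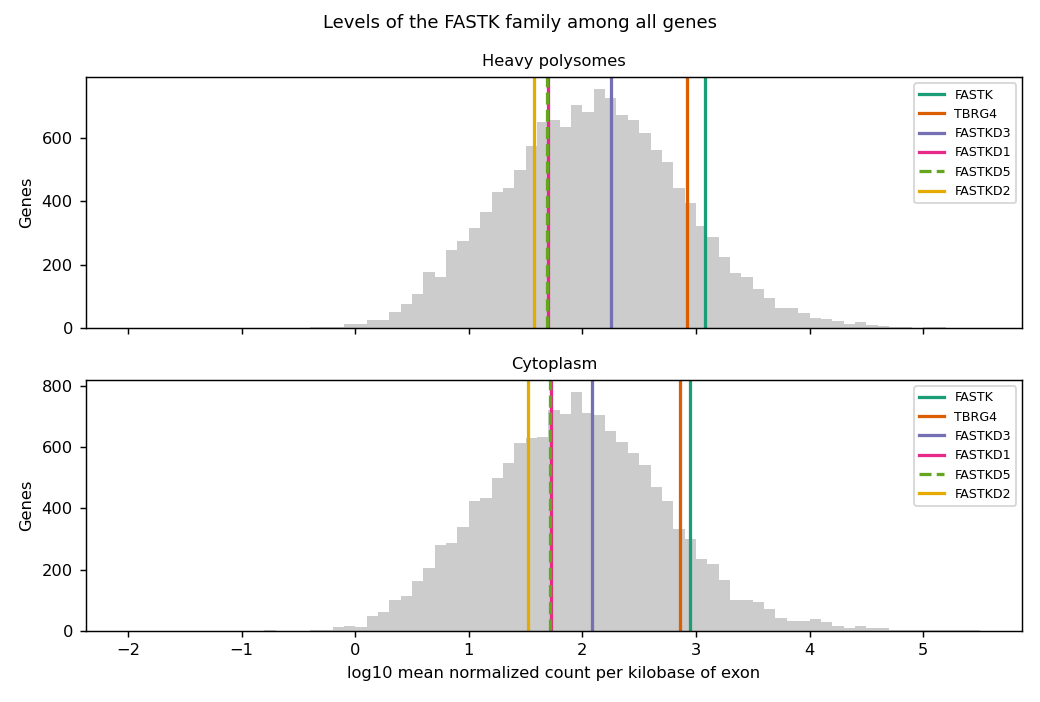
Histogram of log10 mean normalized count per kilobase of exon over all genes with a gene model, in heavy polysomes (top) and cytoplasm (bottom), with 1 vertical line per family member. FASTK and TBRG4 stand in the upper tail, FASTKD3 near the middle on this exon-length scale, and FASTKD1, FASTKD5 and FASTKD2 to its left.

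The ratio of polysomal to cytoplasmic mean normalized count describes how each mRNA divided between the fractions over both treatments. It was 1.47 for FASTKD3, 1.36 for FASTK, 1.15 for TBRG4, 1.13 for FASTKD2, 0.945 for FASTKD1 and 0.928 for FASTKD5. How the fractions were scaled to each other is not given in the sources used here, so the ratio is read against the median gene, which had 1.42. Of the members 5 of 6 were below it, with FASTKD5 above 13.5% of genes only and FASTKD1 above 14.6%. Mitochondrial mRNAs and rRNAs, which cytosolic ribosomes do not translate, had ratios from 0.0251 to 0.211, far under every member of the family.

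In whole cells, the question was whether GC7 changed the level of these mRNAs, and no member was called, that is, none had an adjusted p under 0.05. The authors' own categories in the fraction table are stricter than this rule for some genes. After the change of sign, FASTK had a log2 fold change of 0.23 from the authors' deposited table (unadjusted p = 0.665), and the other 5 were negative. The authors' deposited table gives -0.09 for TBRG4 (unadjusted p = 0.786), -0.22 for FASTKD3 (unadjusted p = 0.824), -0.24 for FASTKD1 (unadjusted p = 0.588), -0.29 for FASTKD2 (unadjusted p = 0.755) and -0.44 for FASTKD5 (unadjusted p = 0.535). After Benjamini-Hochberg adjustment over the 44682 genes each of the 6 had an adjusted p of 0.953, and 0 of 6 passed 0.05, beside 0.0% of all genes. At an unadjusted p under 0.05 the count was also 0 of 6, beside 2.99% of all genes (1.33% lower and 1.66% higher). All genes here include 18022 at the value of genes without reads, so the share over the 26660 with reads is higher. With Benjamini-Hochberg adjustment over those 26660, each of the 6 members had an adjusted p of 0.999. The whole-cell table holds no SE. If its p-values came from a normal test, they imply SEs from 0.33 for TBRG4 to 1.00 for FASTKD3, that is, 95% intervals reaching 0.64 to 1.96 to either side on the log2 scale, and past 1 for 4 of 6 members. Estimates smaller in size than these reaches would not have had an unadjusted p under 0.05. The limit for a call lies further out, and it cannot be given because no gene was called in whole cells. MT-CO3, for example, stood at -3.47 in whole cells and was not called.

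In cytoplasmic RNA, FASTK and TBRG4 had the lowest deposited values of the family, and neither passed the adjusted threshold. On the unshrunken scale FASTKD1 lay between them, with a wider interval. TBRG4, which stabilises several mitochondrial mRNAs, stood at -0.39 in the authors' deposited table (SE 0.17, unadjusted p = 0.00331, adjusted p = 0.0674). FASTK, the founding member, stood at -0.36 in the authors' deposited table (SE 0.31, unadjusted p = 0.0250, adjusted p = 0.228). The deposited fold changes are shrunken towards 0, most where the SE is large, and unshrinking them gave -0.48 for TBRG4 (SE 0.16, 95% interval -0.80 to -0.16) and -0.63 for FASTK (SE 0.28, 95% interval -1.17 to -0.08). These correspond to 0.716 and 0.647 of the vehicle level. A value as low as that of TBRG4 or lower was deposited for 547 genes, 3.47% of the table.

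The other 4 members were closer to 0 or less certain in cytoplasm. FASTKD1, at -0.10 in the authors' deposited table (SE 0.21, adjusted p = 0.613), had an unshrunken value of -0.56 with the widest interval of the family, from -1.46 to 0.35. FASTKD5 stood at -0.09 in the authors' deposited table (SE 0.14, adjusted p = 0.718) and at -0.16 unshrunken (95% interval -0.50 to 0.18). FASTKD2 and FASTKD3 were positive, at 0.05 (SE 0.17, adjusted p = 0.863) and 0.06 (SE 0.15, adjusted p = 0.836), as given in the authors' deposited table. Their unshrunken intervals ran from -0.47 to 0.81 for FASTKD2 and from -0.28 to 0.52 for FASTKD3. In all, 0 of 6 members were called in cytoplasm at an adjusted p under 0.05, beside 4.24% of all genes, and 2 of 6 had an unadjusted p under 0.05, beside 15.4% of all genes. At an adjusted p under 0.1, TBRG4 alone passed, beside 6.26% of all genes. The median deposited log2 fold change of the 6 members was -0.09, beside -0.00 over all genes.

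On heavy polysomes, the 6 mRNAs lay within a narrow range around 0, and no member was called. FASTKD5, which matures RNAs at borders without a tRNA, was lowest at -0.23 in the authors' deposited table (SE 0.19, unadjusted p = 0.0769, adjusted p = 0.288) and at -0.37 unshrunken (95% interval -0.78 to 0.04). FASTKD2, a factor of the 16S rRNA, was highest at 0.16 in the authors' deposited table (SE 0.18, adjusted p = 0.465) and at 0.29 unshrunken (95% interval -0.14 to 0.73). The authors' deposited table gives -0.12 for FASTKD3 (SE 0.14, adjusted p = 0.568), -0.11 for FASTK (SE 0.15, adjusted p = 0.620), -0.05 for TBRG4 (SE 0.13, adjusted p = 0.846) and 0.06 for FASTKD1 (SE 0.15, adjusted p = 0.815). The count was 0 of 6 at an adjusted p under 0.05, beside 11.1% of all genes, and 0 of 6 at an unadjusted p under 0.05, beside 23.3%. The median deposited log2 fold change of the 6 members was -0.08, beside -0.00 over all genes. The unshrunken interval of TBRG4, -0.40 to 0.24, allows between 0.759 and 1.18 times the vehicle level.

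**Figure D2:**
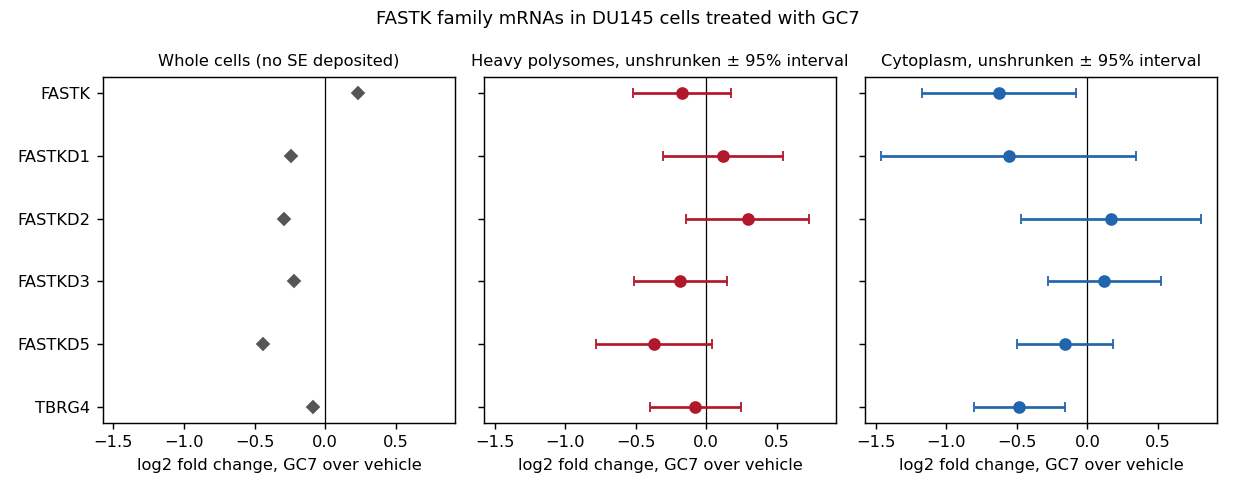
Log2 fold change of each family mRNA, GC7 over vehicle, in whole cells (deposited value with sign reversed, no SE), heavy polysomes and cytoplasm (unshrunken values with 95% intervals). The intervals of FASTK and TBRG4 lie below 0 in cytoplasm, unadjusted for the number of genes tested, and the other intervals include 0.

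The SE set what could be called. With the unshrunken SE of each member and the largest unadjusted p for which the authors' deposited adjusted p was under 0.05, a change would have been called in polysomes from 0.46 on the log2 scale for TBRG4 to 0.62 for FASTKD2. In cytoplasm the same limit ran from 0.50 for TBRG4 and 0.53 for FASTKD5 to 0.86 for FASTK, 1.00 for FASTKD2 and 1.42 for FASTKD1. These limits apply to the estimated change, and smaller estimates would not have been called. How often a true change of a given size would be missed was not tested.

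The difference between the polysomal and the cytoplasmic response tests whether loading on polysomes changed apart from mRNA level. It was positive for FASTKD1 at 0.68 (SE 0.51), FASTK at 0.45 (SE 0.33), TBRG4 at 0.41 (SE 0.23) and FASTKD2 at 0.13 (SE 0.39), and negative for FASTKD5 at -0.21 (SE 0.27) and FASTKD3 at -0.30 (SE 0.27). The FASTKD1 value depended on the shrinkage: it was 0.33 with a wider prior and 0.15 with the values of the authors' deposited table, below FASTK (0.48 and 0.25) and TBRG4 (0.41 and 0.34) in both cases. With fold changes of the authors' deposited table, FASTKD3 at -0.18, FASTKD5 at -0.13 and FASTK were also smaller in size by over 1.5 times. For TBRG4 the 95% interval of this difference was -0.05 to 0.86 and the unadjusted p 0.0804. A normal test with Benjamini-Hochberg adjustment over 15669 genes called 0 of 6 members, beside 0.0% of all genes. The smallest unadjusted p of the family was that of TBRG4, so that 0 of 6 had one under 0.05, beside 2.14% of all genes. A share of 0.05 would be expected if no gene changed. The test was therefore strict, which limits what its lack of calls says about loading on polysomes. Every member had an adjusted p of 1.00.

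Responses in cytoplasm shifted with GC content over all genes, and FASTK and TBRG4 lie in the GC-rich class when genes are cut into 3 equal classes. Among 4293 genes with a coding GC content up to 47.6%, the class that holds the other 4 members, the median unshrunken log2 fold change was 0.00 in polysomes and 0.09 in cytoplasm. In the middle class it was -0.03 in polysomes and -0.01 in cytoplasm. Among 4294 genes from 57.8% upwards it was -0.04 in polysomes and -0.16 in cytoplasm. The unshrunken cytoplasmic values of FASTK and TBRG4 were below that last median, and the part of GC content in them was not tested.

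**Figure D3:**
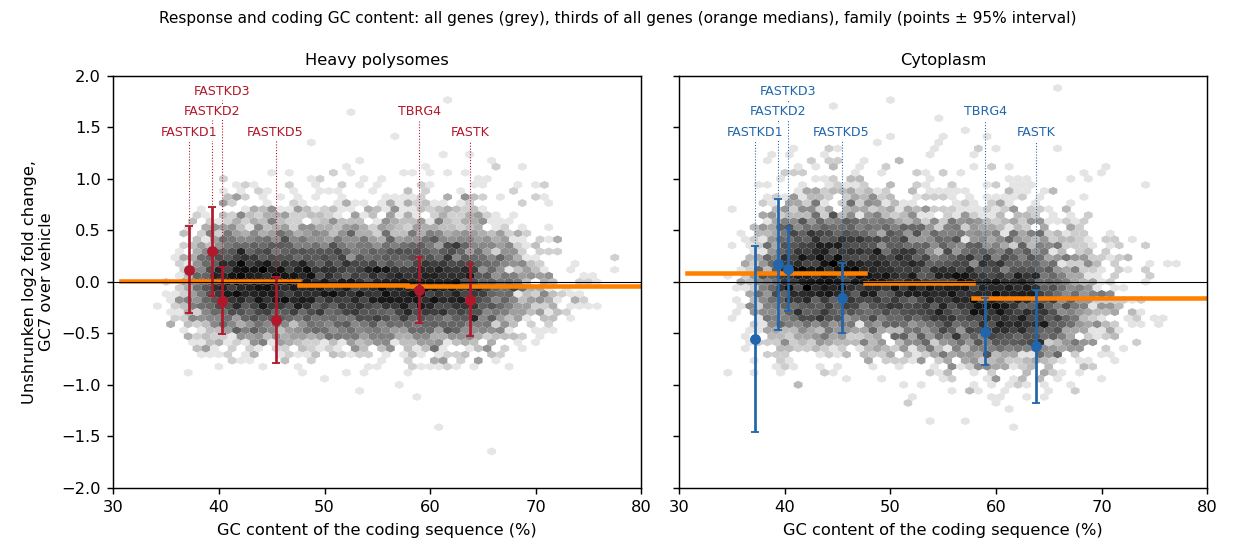
Unshrunken log2 fold change, GC7 over vehicle, against the GC content of the coding sequence in heavy polysomes and cytoplasm, with genes as grey density on a log scale, medians of 3 classes of all genes by GC content as orange lines, and the family as points with 95% intervals. In cytoplasm the medians step down from 0.09 to -0.16 with rising GC content, and 35 genes in polysomes and 53 in cytoplasm, past 2 in size, lie outside the frame.

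Each member was then set beside the mitochondrial RNAs it is known to act on. For 5 of the 6, at least 1 such RNA was called lower in both fractions, with an interval wholly below that of the member's own mRNA. These RNAs share libraries with each other and several belong to more than 1 member, so these comparisons are not independent, and the relation was not tested. Of the 13 mitochondrial mRNAs, 12 were called lower on polysomes and 12 in cytoplasm from adjusted p-values of the authors' deposited table. Over all genes, 5.48% were called lower on polysomes and 1.95% in cytoplasm. The counts of called targets below are to be read beside these shares. In whole cells 13 of 13 were lower at an unadjusted p under 0.05, and 0 of 13 passed Benjamini-Hochberg adjustment. Mitochondrial mRNAs and rRNAs made up 0.685% of the summed mean normalized counts in polysomes and 11.9% in cytoplasm. In both fractions, fewer mitochondria left in the lysate and less RNA per mitochondrion cannot be told apart.

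FASTK is needed for the mRNA of MT-ND6, the complex I subunit encoded alone on its strand among the mRNAs. In whole cells FASTK stood at 0.23 and MT-ND6 at -2.69 (unadjusted p = 0.00794), as given in the authors' deposited table. On polysomes FASTK stood at -0.11 and MT-ND6 at -0.09 (SE 0.20, adjusted p = 0.664), and in cytoplasm FASTK stood at -0.36 and MT-ND6 at -0.50 (SE 0.27, adjusted p = 0.0868), as given in the authors' deposited table. FASTK and MT-ND6 thus had similar unshrunken values in cytoplasm, -0.63 and -0.67, with intervals that overlap, and neither was called in a fraction. MT-ND6 had 148 mean normalized counts in polysomes and 1473 in cytoplasm, the fewest of the 13 mitochondrial mRNAs.

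FASTKD1 is known to limit the level of MT-ND3, another complex I mRNA. FASTKD1 stood at -0.24 and MT-ND3 at -3.27 (unadjusted p = 0.000175) in whole cells in the authors' deposited table. Unshrunken, FASTKD1 stood at 0.12 on polysomes and at -0.56 in cytoplasm, against -4.81 (SE 0.57) and -3.60 (SE 0.55) for MT-ND3. The MT-ND3 values correspond to 28.1-fold and 12.1-fold lower levels with GC7, and the intervals of MT-ND3 lie below those of FASTKD1 in both fractions.

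FASTKD2 acts on the 16S rRNA, MT-RNR2, and also binds MT-ND6. FASTKD2 stood at -0.29 and MT-RNR2 at -1.15 (unadjusted p = 0.0120) in whole cells in the authors' deposited table. On polysomes FASTKD2 stood at 0.16 and MT-RNR2 at -1.08 (SE 0.57, adjusted p = 0.0251), and in cytoplasm FASTKD2 stood at 0.05 and MT-RNR2 at -2.92 (SE 0.42, adjusted p = 7.49e-11), as given in the authors' deposited table. The 12S rRNA, MT-RNR1, given for comparison, stood at 2.29 in whole cells (unadjusted p = 0.000527), at -0.02 on polysomes and at -2.42 in cytoplasm in the authors' deposited table. The 2 rRNAs, which are separated on the chromosome by the valine tRNA MT-TV, had opposite signs in whole cells.

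FASTKD3 supports translation of MT-CO1, and its loss is known to raise several mRNAs. Its own unshrunken values were -0.18 on polysomes and 0.12 in cytoplasm. Its 7 RNAs had unshrunken values from -4.91 to -3.40 on polysomes and from -4.61 to -2.31 in cytoplasm, and 7 of 7 were called lower in each fraction from adjusted p-values of the authors' deposited table. MT-CO1, encoding the catalytic subunit of cytochrome c oxidase, stood at -4.35 (SE 0.48) on polysomes and at -3.79 (SE 0.42) in cytoplasm, unshrunken, and at -1.62 (unadjusted p = 0.0117) in whole cells in the authors' deposited table.

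FASTKD5 acts at the 3 borders without a tRNA printed above. FASTKD5 stood at -0.37 on polysomes and -0.16 in cytoplasm, unshrunken, and the RNAs of these borders, with MT-ATP8, which overlaps MT-ATP6, were called lower in 6 of 6 cases in each fraction from adjusted p-values of the authors' deposited table. At the border of MT-ATP6 and MT-CO3, which share 1 base, the unshrunken values were -4.20 (SE 0.49) and -4.78 (SE 0.48) on polysomes, and -3.91 (SE 0.55) and -4.10 (SE 0.53) in cytoplasm. In whole cells the RNAs of this border stood further apart, with MT-ATP6 at -1.63 (unadjusted p = 0.0160) and MT-CO3 at -3.47 (unadjusted p = 0.000101), as given in the authors' deposited table. At the border of MT-ND5 and MT-CYB the whole-cell values were -1.69 (unadjusted p = 0.0216) and -2.14 (unadjusted p = 0.00765), as given in the authors' deposited table.

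TBRG4 supports the levels of many mitochondrial mRNAs and the cut between MT-ND5 and MT-CYB. Its unshrunken values were -0.08 on polysomes and -0.48 in cytoplasm. Its 8 RNAs had medians of -4.65 on polysomes and -3.85 in cytoplasm on the same scale, with 8 of 8 called lower in each fraction from adjusted p-values of the authors' deposited table. MT-CYB, encoding cytochrome b, was the lowest of them at -4.91 (SE 0.50) on polysomes and -4.61 (SE 0.59) in cytoplasm, unshrunken, and MT-ATP8 the least lowered in cytoplasm at -2.31 (SE 0.31). For FASTKD3, FASTKD5 and TBRG4, each target's 95% interval lay wholly below that of the member in both fractions (7 of 7, 6 of 6 and 8 of 8). The same held for MT-ND1, MT-ND4 and MT-ND4L, which are not among the RNAs listed for any member. Their upper limits were -2.43, -2.68 and -2.28 on polysomes, and -2.75, -2.97 and -1.89 in cytoplasm. These counts therefore do not set the targets apart from other mitochondrial mRNAs.

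**Figure D4:**
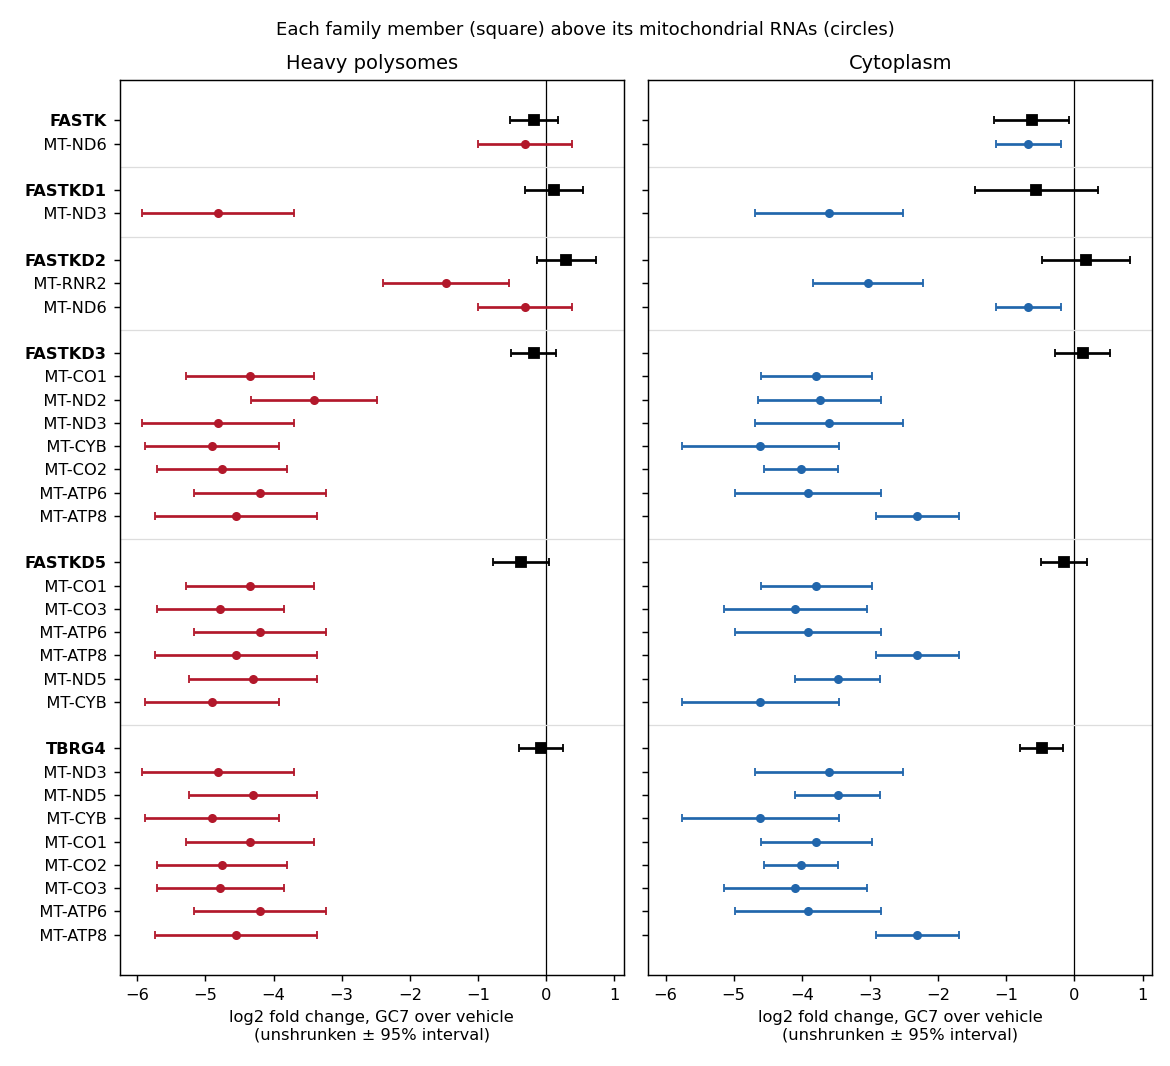
Unshrunken log2 fold change, GC7 over vehicle, with 95% intervals for each family mRNA (black square) above the mitochondrial RNAs it is known to act on (circles), in heavy polysomes (left) and cytoplasm (right). The family lies between -0.63 and 0.29, and its target RNAs other than MT-ND6 lie between -4.91 and -1.47.

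The family works beside other proteins of mitochondrial RNA, and 37 of these were measured. In cytoplasm 1 of 37 was called higher and 1 lower, beside 2.29% and 1.95% of all genes, and the authors' deposited values had a median of 0.03 against -0.00 for all genes. On polysomes 3 of 37 were called higher and 1 lower, beside 5.61% and 5.48% of all genes, and their median by the authors' deposited table was 0.05 against -0.00 for all genes. In whole cells 0 of 37 passed adjustment and 0 of 37 had an unadjusted p under 0.05, and the median from the authors' deposited table was -0.10 against -0.04 for genes also measured in the fractions.

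At an adjusted p under 0.05 the called partners were 4, and the authors' own category for each of them in the deposited table is not significant. In whole cells none of the 4 passed an unadjusted p of 0.05: the authors' deposited table gives -0.10 for PNPT1 (unadjusted p = 0.887), -0.08 for PTCD2 (unadjusted p = 0.943), 0.10 for TFB1M (unadjusted p = 0.859) and -0.29 for RCC1L (unadjusted p = 0.718). PNPT1, polynucleotide phosphorylase, which degrades mitochondrial RNA, stood at 0.72 on polysomes (SE 0.14, adjusted p = 1.94e-06) and at 0.91 in cytoplasm (SE 0.27, adjusted p = 0.00349), as given in the authors' deposited table. PTCD2, a pentatricopeptide repeat protein tied in mice to the processing of cytochrome b transcripts, stood at 0.75 on polysomes (SE 0.18, adjusted p = 0.000108) and at 0.79 in cytoplasm (SE 0.58, adjusted p = 0.0887), as given in the authors' deposited table. TFB1M, which methylates the 12S rRNA, stood at 0.57 on polysomes (SE 0.19, adjusted p = 0.00484) and at 0.06 in cytoplasm (SE 0.18, adjusted p = 0.814), as given in the authors' deposited table. RCC1L was called lower in both, at -0.36 on polysomes (SE 0.13, adjusted p = 0.0186) and at -0.52 in cytoplasm (SE 0.14, adjusted p = 0.00121), as given in the authors' deposited table.

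RCC1L works with FASTKD2, NGRN, TRUB2, RPUSD3 and RPUSD4 in a module that supports the 16S rRNA. None of the other members of the module was called in either fraction. In the authors' deposited table NGRN stood at -0.16 on polysomes and 0.03 in cytoplasm, TRUB2 at -0.03 and 0.00, RPUSD3 at 0.13 and 0.15, and RPUSD4 at -0.18 and -0.02. LRPPRC, which with SLIRP stabilises most mitochondrial mRNAs, stood at 0.24 on polysomes (SE 0.19, adjusted p = 0.252) and at 0.10 in cytoplasm (SE 0.17, adjusted p = 0.704), as given in the authors' deposited table. GRSF1, a protein of the RNA granules in which FASTK family members are found, stood at -0.03 on polysomes and 0.05 in cytoplasm in the authors' deposited table.

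**Figure D5:**
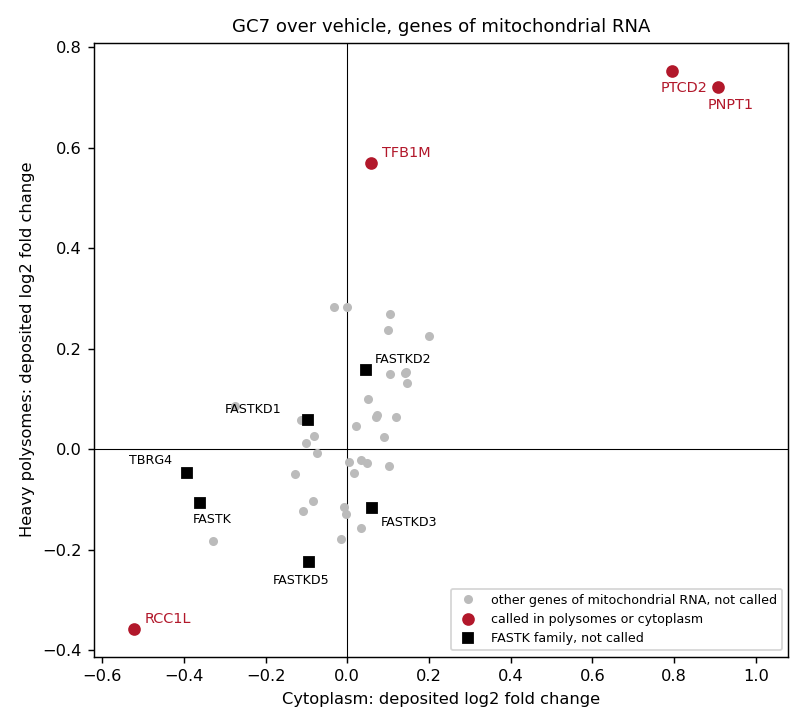
Deposited log2 fold change, GC7 over vehicle, on heavy polysomes (vertical axis) against cytoplasm (horizontal axis) for the FASTK family (black squares) and 37 other genes of mitochondrial RNA (circles, larger and red where called in polysomes or cytoplasm). FASTK and TBRG4 lie left of zero in cytoplasm, at -0.36 and -0.39, and close to zero on polysomes, at -0.11 and -0.05; RCC1L is the lowest point on both axes.

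Exons shared with other genes limit some of these values. FASTKD5 shares 100 exon bases with UBOX5 on the same strand and 330 with UBOX5-AS1 on the other, FASTKD3 shares 100 with MTRR on the other strand, and an exon of TBRG4 covers 132 bases of the small nucleolar RNA SNORA5B. How reads on shared bases were counted is not given in the sources used here. FASTK, FASTKD1 and FASTKD2 share no exon base with another annotated gene.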

How the data were processed

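RNA was sequenced from 18 libraries in 6 groups of 3, per the labels. The submitters' processing notes name GRCh38 and the tools Salmon 1.4.0 and STAR 2.7.8a, with roles not given in the sources used here. For 44682 genes the whole-cell table deposited by the authors holds log2 fold changes beside p-values without adjustment. Its log base was inferred: 2454 genes lie 0.528 from the value of genes without reads, the step of 1 read in 1 of 3 libraries in base 2. The authors' deposited fraction table covers 15747 genes with mean normalized counts (a signal averaged over both treatments), shrunken log2 fold changes and their SEs, and p-values before and after adjustment. 0 columns of values per library were used.

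Over 14066 nuclear genes the whole-cell values as deposited had a Spearman rho of -0.38 with polysomal and -0.27 with cytoplasmic values, so their sign was reversed. Of 610 such genes called in cytoplasm, 520 had the opposite sign as deposited. Mitochondrial genes were matched to whole-cell symbols by position in RefSeq.

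Fold changes were unshrunken by fitting a Cauchy prior (natural log scale) to the deposited p-values, with scale 0.205 in polysomes and 0.195 in cytoplasm. The recovered z was within 0.1 for 99.5% and 97.4% of genes, and 9 and 73 genes without a matching value were left out. Polysomal minus cytoplasmic change was tested with a normal test, Benjamini-Hochberg adjusted over 15669 genes, taking errors as independent. A gene was called at an adjusted p under 0.05. Count tests need values per library and were not used. Gene models are GENCODE 44 (GRCh38), and levels use all exons of a gene. Tools were Python 3.11.15, pandas 2.3.3 and scipy 1.17.1.

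The members, their target RNAs and the 37 partner genes were chosen with earlier results of these data known. Named were all members, their targets, the called partners, and markers. A rule that names genes with patterns like a called member named none, since no member was called. Other partners and the exon-sharing genes were chosen after their values were seen. Alternatives covered filters on low counts, call rules, adjustment, shrinkage, the prior, error correlation, the partner list and gene length.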

Additional observations from a re-analysis of the deposited data

How the results depend on the processing

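Of 118 values of single members under alternatives, 117 kept their direction and their side of the threshold. The exception was TBRG4 in cytoplasm, whose deposited log2 fold change of -0.39 was called when the limit on adjusted p was 0.1, so that 1 member was called in place of 0. With recomputed adjustments it stayed above 0.05, at 0.0584 over genes with at least 100 counts. Count filters, call rules, adjustment and error correlation reuse the same fold change, so the direction could not change under them. A rule that also asks for a log2 change beyond 1 cannot make an uncalled member pass. Much of the count of 117 was therefore fixed in advance. Over all genes, the calls were 1336 in whole cells at an unadjusted p under 0.05 in place of 0, and, where a log2 change beyond 1 was also required, 214 in polysomes in place of 1746 and 166 in cytoplasm in place of 668. Calls of polysomal minus cytoplasmic change, 0 as reported, were 1 with deposited fold changes and SEs, 212 with the prior scale at 0.8 times, 3 with a wider prior, and 20 with a correlation of 0.5 between errors, and no member was among them. At 0.8 times, FASTKD1 and FASTKD2 had no value. With coding length the level ranks in cytoplasm were 1 for TBRG4, 2 for FASTK, 4 for FASTKD2 and 6 for FASTKD1, and in polysomes 4 for FASTKD2 and 6 for FASTKD1. No paired analysis was possible because the tables hold no value per library, and for the same reason leaving out single replicates was not run.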

Other observations

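Genes that share exons with the family were measured as well. MTRR, methionine synthase reductase, which shares exon bases with FASTKD3 on the other strand, stood at 0.15 on polysomes (SE 0.13, adjusted p = 0.426) and at 0.35 in cytoplasm (SE 0.41, adjusted p = 0.238), as given in the authors' deposited table, where FASTKD3 stood at -0.12 and 0.06. Its ratio of polysomal to cytoplasmic mean normalized count was 2.32, above the 1.47 of FASTKD3. UBOX5, a ubiquitin ligase gene that shares exon bases with FASTKD5, stood at 0.20 on polysomes (SE 0.17, adjusted p = 0.327) and at -0.00 in cytoplasm (SE 0.14, adjusted p = 0.991), as given in the authors' deposited table, where FASTKD5 stood at -0.23 and -0.09.

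For MTPAP, the mitochondrial poly(A) polymerase, the polysomal minus cytoplasmic difference was 0.56 (SE 0.27, 95% interval 0.03 to 1.10), from unshrunken values of 0.16 (SE 0.20) on polysomes and -0.41 (SE 0.19) in cytoplasm. It was the 1 partner gene of 37 whose interval for this difference, without adjustment, lay on one side of 0, and it did not pass adjustment. Over all genes, 2.14% had an unadjusted p under 0.05 for this difference, so 1 of 37 is close to that share. MTPAP was named after its value was seen.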
